A study of Homo sapiens with 8 samples.

Results

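Collagens and laminins are the chains from which the extracellular matrix and the basement membrane are built. Their genes were taken by symbol: COL, a number, A and a number with nothing after it, or LAM, a letter from A to C and a digit with nothing after it. The rule used no measured value and gave 56 of the 61228 genes listed, 44 for collagen chains and 12 for laminin chains. RNA was sequenced in 8 libraries of 2 human cell lines derived from lung cancers, H1975 and HCC44, whose genotype is labelled WT. Cells of both lines grew in RPMI-1640 medium with serum and received the solvent DMSO or ACBI1 for 96 hours, with 2 libraries in each of the 4 groups. The labels give the ACBI1 concentration as 1 mM, a unit far above those usual for degraders and so uncertain. One title, that of the second HCC44 ACBI1 library, writes ACBI, and the treatment field of that library writes ACBI1. ACBI1 is a degrader: it links the VHL ubiquitin ligase to bromodomain proteins of the SWI/SNF chromatin remodellers, namely the ATPases SMARCA4 and SMARCA2 and the subunit PBRM1. The comparisons ask which matrix chains each line transcribes and which change with ACBI1.

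Collagen chains wind around each other in trimers. Fibrillar collagens, with type I and type V as examples, form fibres, type IV collagen forms the net of the basement membrane, type VI forms beaded filaments, type VII forms the anchoring fibrils that tie an epithelium to the tissue below, and type XVII crosses the plasma membrane at hemidesmosomes. A laminin is a trimer of an alpha, a beta and a gamma chain, secreted by epithelia into the basement membrane, where integrins and dystroglycan bind it. The genes are described below by the trimers their chains share.

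Levels are given as CPM, the usual depth-scaled read count, with each library's total scaled by its TMM factor, in the order replicate 1, replicate 2. A gene is said to have risen or fallen where edgeR's quasi-likelihood test, adjusted over all tested genes by the method of Benjamini and Hochberg, gave a p under 0.05. Changes are log2 fold changes with their standard error, and each ACBI1 comparison within a line set 2 libraries against 2. Nothing in the labels says that replicates came from separate cultures, so these p-values measure only the spread between these samples. Counts assigned to genes came to between 62467286 and 70455517 per library, the factors of TMM ran from 0.906 to 1.146, and the median change over all 21307 tested genes was -0.01 in H1975 and 0.01 in HCC44. In bulk RNA, fewer cells of a kind and less RNA per cell cannot be told apart. All 8 epithelial markers listed (EPCAM, CDH1, KRT7, KRT8, KRT18, KRT19, CLDN4 and ELF3) exceeded 1 CPM in both lines, with sums of 5451 to 5790 CPM in H1975 DMSO and 970.3 to 1006 CPM in HCC44 DMSO. The lung lineage factor NKX2-1 was at 27.5 and 24.3 CPM in H1975 DMSO and at 0.0318 and 0 CPM in HCC44 DMSO. Of 8 fibroblast markers, DCN and DPT had no counts in any library, and the list summed to 0.695 to 1.10 CPM in H1975 DMSO and 33.9 to 40.9 CPM in HCC44 DMSO, where PDPN held most of it.

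The lines transcribed different sets of chains. At 1 CPM or more as the DMSO mean, 31 members were expressed in H1975 and 31 in HCC44, 25 of them in both, 6 in each line alone and 19 in neither. The widest gap was in type IV collagen, with 2 of 6 chains expressed in H1975 and 6 of 6 in HCC44. To compare levels between genes, CPM was divided by the kilobases of merged exons in the GENCODE 29 annotation. On that scale LAMB3, the beta chain of the laminin of hemidesmosomes, was the highest member in every DMSO library, with mean levels of 246 CPM per kb in H1975 and 211 in HCC44. Other members high in H1975 on this scale were COL7A1 (64.1), LAMB2 (51.5) and LAMC1 (49.3), whose order differed between the replicates. Among those high in HCC44 were COL6A2 (94.9), LAMA5 (77.0) and LAMB1 (65.6), in the same order in both replicates.

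Laminins made up most of the members' RNA. Of the summed CPM per kb of all members, laminin chains held 64.8 and 67.2% in H1975 DMSO and 62.8 and 61.3% in HCC44 DMSO. With ACBI1 the laminin share was 78.2 and 76.3% in H1975 and 64.7 and 57.0% in HCC44, so that it was above DMSO in both H1975 libraries and on either side of it in HCC44. Summed CPM of all 56 members was 4830 and 4266 in H1975 DMSO against 1887 and 1863 with ACBI1. In HCC44 the sum was 7213 and 7653 in DMSO against 5028 and 6110 with ACBI1. Neither line's groups overlapped, and in H1975 the ACBI1 sums were less than those of any other libraries.

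**Figure D1:**
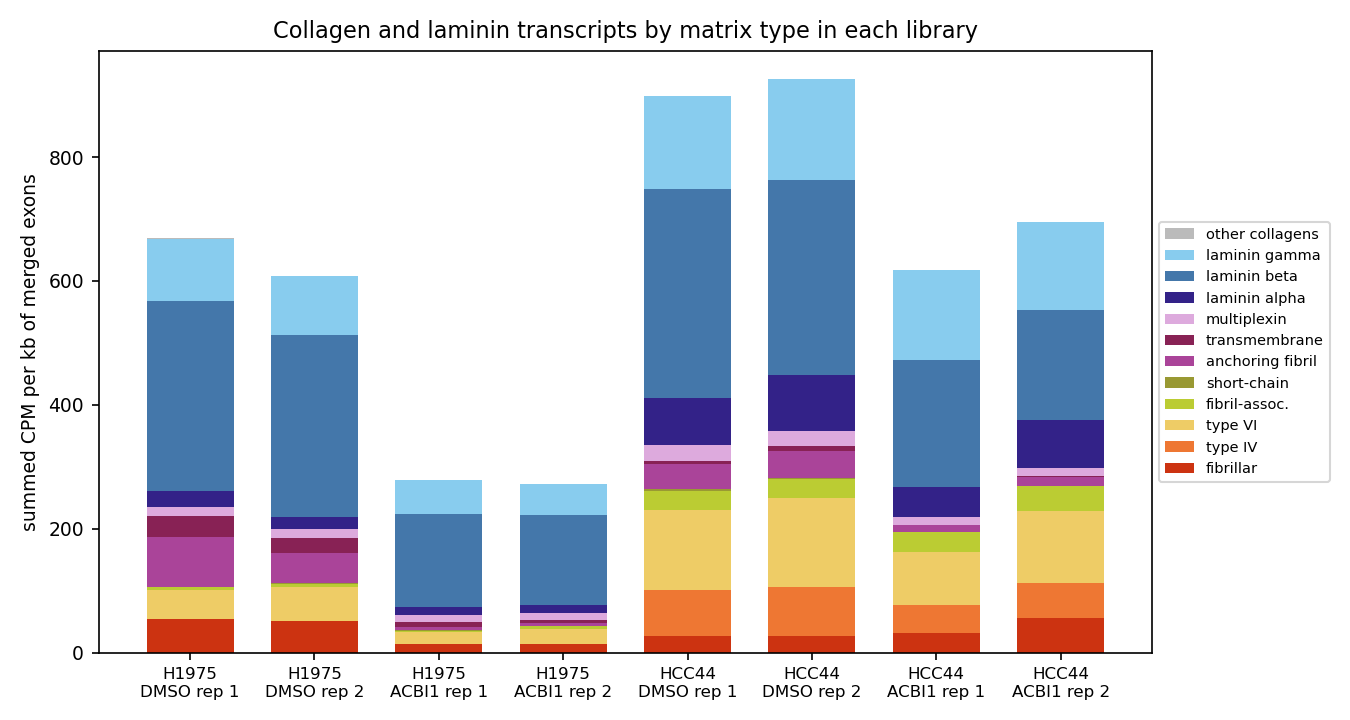
Summed CPM per kb of merged exons (vertical axis) in each of the 8 libraries, stacked by matrix type. The H1975 ACBI1 bars end at 279 and 273, below the H1975 DMSO bars at 669 and 609, and type IV collagen is visible in the HCC44 bars alone.

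Of the 56 members, 44 had enough counts to be tested. In H1975, 20 of the 44 fell with ACBI1 and 1 rose, against a background of 31.3% of all tested genes called, 16.7% lower and 14.6% higher. In HCC44, 18 fell and 5 rose, against 34.9% called, 17.4% lower and 17.5% higher. The median change of the tested members was -0.80 in H1975 and -0.52 in HCC44. These members include some that passed the count filter through the group in which they were high. Falling in both lines were 9 members (COL1A2, COL5A1, COL6A2, COL6A3, COL16A1, COL7A1, COL18A1, LAMB2 and LAMB3), where 12.9% of all tested genes were called in the same direction in both. COL1A1 and LAMC1 were called in opposite directions, as were 2.23% of all tested genes, and 11 members were called in neither line. Without TMM factors, that is with library totals alone, the scaling moved the median of all genes to 0.18 in H1975 and 0.09 in HCC44, and the share of calls that were higher from 46.6 to 72.3% and from 50.0 to 60.5%. Under library totals 18 members were called in H1975 and 22 in HCC44, against 35.2% of all tested genes in each line.

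**Figure D2:**
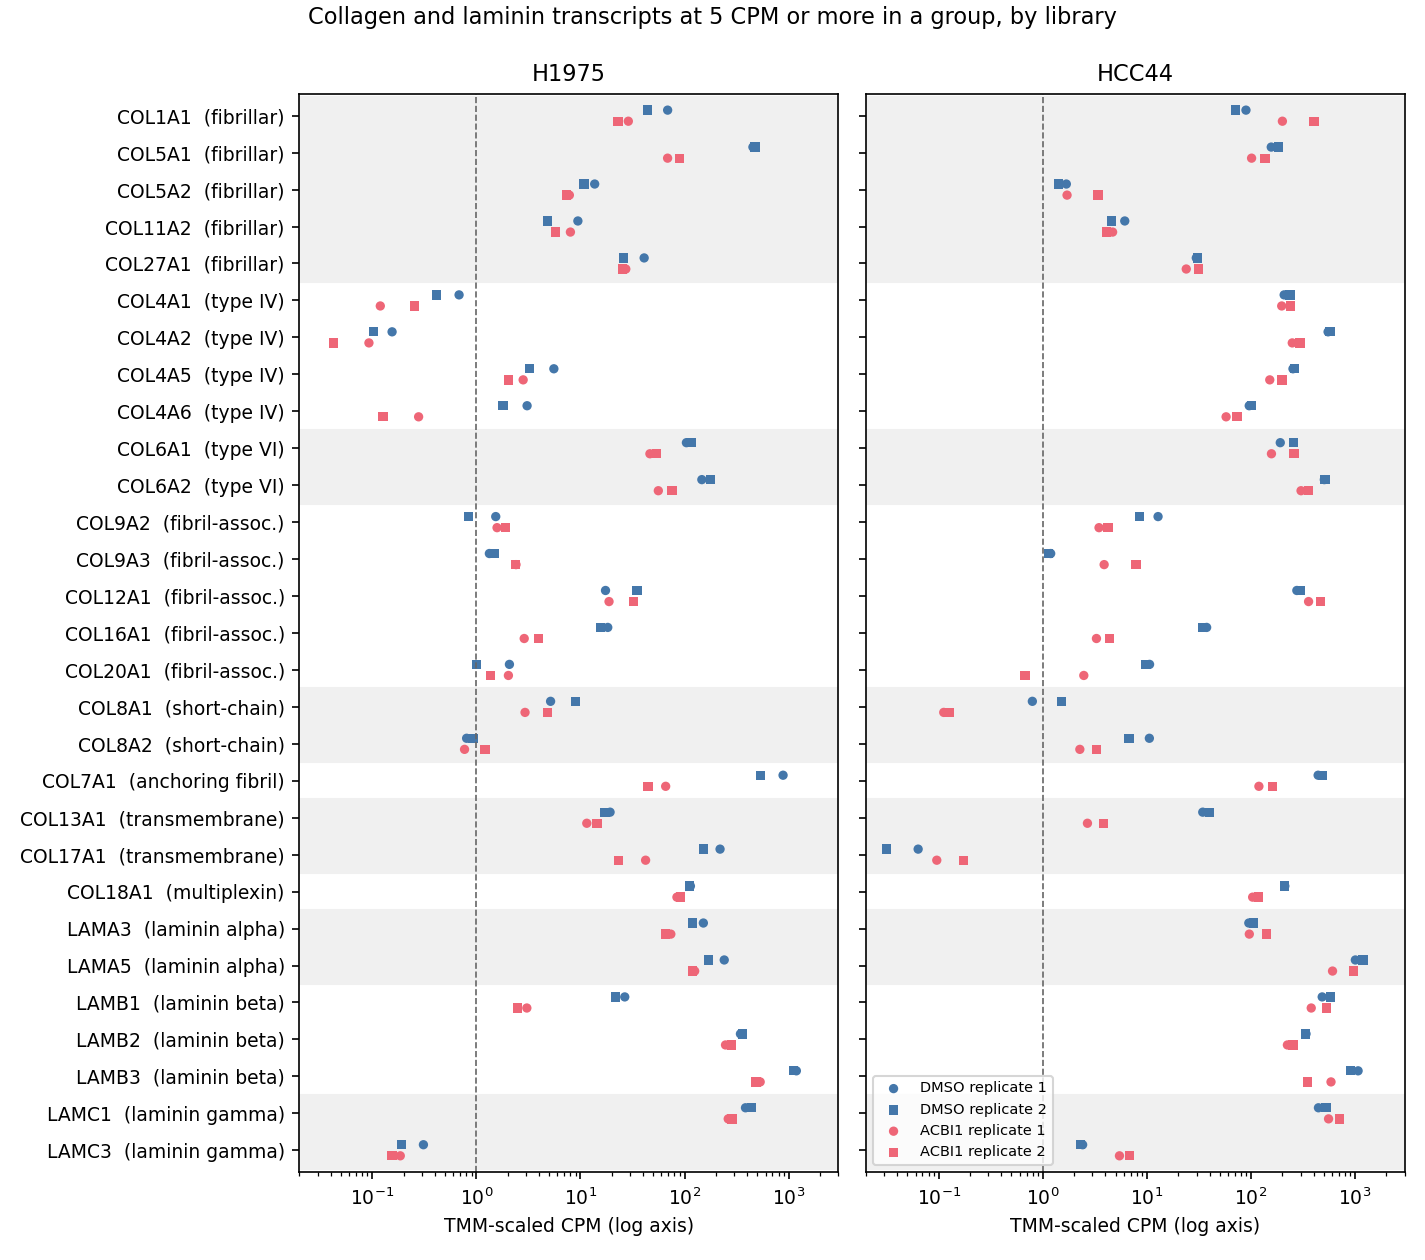
TMM-scaled CPM on a log axis for 29 members that reached 5 CPM as a group's mean, grouped by matrix type, with a point per library. DMSO and ACBI1 points lie apart for COL7A1 in both lines, and COL4A1 and COL4A2 lie below 1 CPM (dashed line) in H1975 and above 190 CPM in HCC44.

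LAMA3 and LAMB3, an alpha and a beta chain of the laminin of hemidesmosomes, were abundant in both lines. LAMB3 was at 1187 and 1115 CPM in H1975 DMSO and at 533 and 485 CPM with ACBI1. The HCC44 libraries were at 1069 and 908 CPM in DMSO and at 587 and 351 CPM with ACBI1. The ACBI1 libraries were below the DMSO libraries in both lines, with falls of 1.18 ± 0.21 for H1975 (adjusted p = 0.00422) and 1.07 ± 0.21 for HCC44 (adjusted p = 0.00513). The alpha chain LAMA3 was at 152 and 120.0 CPM in H1975 DMSO and at 73.9 and 66.1 CPM with ACBI1, a fall of 0.96 ± 0.18 (adjusted p = 0.00368). In HCC44, LAMA3 was at 95.4 and 106 CPM in DMSO and at 96.4 and 141 CPM with ACBI1, and the groups overlapped. Both chains thus fell in H1975, and of the pair LAMB3 alone was called in HCC44. The ratio of LAMB3 to LAMA3 read counts was 11.2 and 8.56 in HCC44 DMSO and 6.09 and 2.49 with ACBI1, while in H1975 it stayed between 7.21 and 9.30 in all 4 libraries.

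LAMA5, LAMB1, LAMB2 and LAMC1 give the chains of the laminins that most basement membranes hold. LAMB1 was low in H1975, at 26.7 and 21.7 CPM in DMSO, and at 3.06 and 2.47 CPM with ACBI1. Its fall of 3.13 ± 0.21 (adjusted p = 2.19e-05) was the largest of any laminin chain at 5 CPM or more. In HCC44, LAMB1 was at 483 and 584 CPM in DMSO and at 379 and 530.3 CPM with ACBI1, with overlapping groups and a change of -0.23 ± 0.17 (adjusted p = 0.345). Its alternative beta chain LAMB2 was at 345 and 363 CPM in H1975 DMSO and at 248 and 282 CPM with ACBI1. In HCC44, LAMB2 was at 338 and 336 CPM in DMSO and at 224 and 254 CPM with ACBI1. LAMB2 fell in both lines by a similar size, -0.42 ± 0.10 (adjusted p = 0.0075) and -0.50 ± 0.10 (adjusted p = 0.00236). Its H1975 call was lost under library totals (-0.22, adjusted p = 0.0926), without DMSO replicate 2 (adjusted p = 0.0758) and without ACBI1 replicate 1 (adjusted p = 0.136). LAMB1 reads were 0.0774 and 0.0599 of LAMB2 reads in H1975 DMSO and 0.0123 and 0.00878 with ACBI1, whereas in HCC44 they were 1.43 to 2.09 times LAMB2 reads in the 4 libraries.

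LAMC1, the gamma chain that most laminins share, moved in opposite directions. It was at 385 and 443 CPM in H1975 DMSO and at 263 and 285 CPM with ACBI1, a fall of 0.59 ± 0.13 (adjusted p = 0.00555). HCC44 libraries stood at 445 and 524 CPM in DMSO and at 556 and 705 CPM with ACBI1, a rise of 0.38 ± 0.13 (adjusted p = 0.0394). Neither line's groups overlapped. The fall was not called without H1975 DMSO replicate 2 (-0.44, adjusted p = 0.0526). The rise was not called without HCC44 DMSO replicate 1 (0.26, adjusted p = 0.277) or ACBI1 replicate 2 (0.20, adjusted p = 0.295). LAMA5, the main alpha chain of adult epithelial basement membranes, was at 241 and 170.3 CPM in H1975 DMSO and at 125 and 119.9 CPM with ACBI1. In HCC44, LAMA5 was at 1006 and 1195 CPM in DMSO and at 607 and 971 CPM with ACBI1. The groups did not overlap in either line, but of its changes of -0.75 ± 0.24 and -0.48 ± 0.23 the first alone was called (adjusted p = 0.0474 and 0.159), while DESeq2 called the second too (adjusted p = 0.0465). The H1975 call was lost under library totals (-0.54, adjusted p = 0.114), with no count filter (adjusted p = 0.188), and without DMSO replicate 1 (-0.48, adjusted p = 0.27), ACBI1 replicate 1 (adjusted p = 0.177) or ACBI1 replicate 2 (adjusted p = 0.222).

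LAMC3 was at 2.42 and 2.30 CPM in HCC44 DMSO and at 5.46 and 6.80 CPM with ACBI1, a rise of 1.38 ± 0.24 (adjusted p = 0.00118), and at 0.156 to 0.311 CPM in H1975. LAMA2, an alpha chain of muscle and nerve, was at 1.54 to 1.92 CPM in H1975 and under 1 CPM in HCC44, and was called in neither line. LAMA1, LAMA4 and LAMB4 stayed under 1 CPM in every library. Of the 11 laminin chains tested, 8 fell in H1975 and none rose. In HCC44, LAMB2 and LAMB3 fell, LAMC1 and LAMC3 rose, and 7 were not called. The share called was 72.7% in H1975, against 31.3% of all tested genes, and 36.4% in HCC44, near the 34.9% of all tested genes.

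Because partner chains differed in their change, 2 laminin promoters are shown. They are the bases before the first RefSeq start site that lie outside GENCODE 29 exons, in build GRCh38.p14, from 5′ to 3′ on the gene's strand. Capitals mark GC boxes, GGGCGG on either strand. LAMB1 lies at chr7:107923799-108003255 on the minus strand and LAMC1 at chr1:183023460-183145592 on the plus strand. The stretches are chr7:108003256-108003411 for LAMB1 and chr1:183023170-183023419 for LAMC1.
LAMB1: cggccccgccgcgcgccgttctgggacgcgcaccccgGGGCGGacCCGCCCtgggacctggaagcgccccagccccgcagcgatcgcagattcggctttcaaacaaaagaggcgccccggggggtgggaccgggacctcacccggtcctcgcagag
LAMC1: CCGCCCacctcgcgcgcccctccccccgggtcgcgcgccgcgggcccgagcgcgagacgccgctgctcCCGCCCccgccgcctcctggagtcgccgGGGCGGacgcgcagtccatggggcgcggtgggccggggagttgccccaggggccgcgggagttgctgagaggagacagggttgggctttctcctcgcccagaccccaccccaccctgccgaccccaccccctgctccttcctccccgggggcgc
Both are rich in G and C, at 75% and 79.6% of bases, with 2 GC boxes in the LAMB1 stretch and 3 in that of LAMC1. The stretches differ in length, with 156 bases for LAMB1 and 250 for LAMC1. In the full 250 bases before the start, LAMB1 has 4 GC boxes and LAMC1 has 3. Neither stretch holds the TATA box TATAAA. Neither has a CCAAT box, nor the AP-1 element TGANTCA, on either strand. Of the 35116 promoters in the RefSeq table, 42.6% hold a GC box, 32.0% CCAAT, 10.7% TATAAA and 6.57% TGANTCA, in the 250 bases before the start. Motifs were searched on both strands and counted separately, so that a base may belong to more than 1 of them. Among 55 promoters listed for 41 of the members, the shares were 58.2% for the GC box, 25.5% for CCAAT, 14.5% for TATAAA and 5.45% for TGANTCA. A match describes letters and no binding.

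Type IV collagen separated the lines more than any other type. Its chains summed to 9.51 and 5.61 CPM in H1975 DMSO and to 1112 and 1179 CPM in HCC44 DMSO. Per kb, they held 0.128 and 0.083% of the members' RNA in H1975 DMSO and 8.31 and 8.56% in HCC44 DMSO. The genes stand in head-to-head pairs, with facing start sites 126 bases apart for COL4A1 and COL4A2, 418 for COL4A4 and COL4A3, and 379 for COL4A6 and COL4A5. COL4A1 and COL4A2 code for the chains of the common type IV trimer. COL4A1 was at 208 and 237 CPM in HCC44 DMSO and at 197 and 239 CPM with ACBI1. In the same libraries COL4A2 was at 550.5 and 575 CPM and then at 249 and 295 CPM. COL4A1 groups overlapped, with a change of -0.03 ± 0.15 (adjusted p = 0.914), while COL4A2 libraries did not overlap and fell by 1.05 ± 0.11 (adjusted p = 5.49e-05). The ratio of COL4A2 to COL4A1 read counts was accordingly 2.64 and 2.42 in DMSO and 1.26 and 1.23 with ACBI1. In H1975, COL4A1 was at 0.683 and 0.414 CPM in DMSO and at 0.12 and 0.255 CPM with ACBI1, and COL4A2 lay between 0.0424 and 0.155 CPM. The COL4A1 values were called lower (-1.55 ± 0.38, adjusted p = 0.0125), but not without DMSO replicate 1 (adjusted p = 0.0791) or ACBI1 replicate 1 (adjusted p = 0.0672).

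The bases between a facing pair serve both genes, so 30 of those 126 are shown for COL4A1 and COL4A2. They lie at chr13:110307166-110307195 in GRCh38.p14 and are read on the plus strand, which is that of COL4A2. The capitals mark CCAAT.
COL4A1/COL4A2: cgggccgagctccCCAATttgttggcgctg
The 30 bases were placed around a CCAAT match, so the 1 CCAAT box they hold follows from that choice. They are 66.7% G and C. The 250 bases before the start hold 2 GC boxes for COL4A1 and 1 for COL4A2. For the pair on the X chromosome, the 250 bases before the COL4A5 start site are shown, at chrX:108439588-108439837 on the plus strand, with CCAAT in capitals on either strand.
COL4A5: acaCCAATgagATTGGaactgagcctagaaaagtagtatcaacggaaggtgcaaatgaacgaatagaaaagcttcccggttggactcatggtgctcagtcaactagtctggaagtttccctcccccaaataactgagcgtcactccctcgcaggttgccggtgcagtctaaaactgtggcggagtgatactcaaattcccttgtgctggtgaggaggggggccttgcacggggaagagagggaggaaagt
This stretch is 51.2% G and C and holds CCAAT letters 2 times, once on each strand. COL4A5 and COL4A6 code for chains of the type IV trimer of bronchial, skin and smooth muscle basement membranes. COL4A5 was at 253 and 264 CPM in HCC44 DMSO and at 152 and 199 CPM with ACBI1. COL4A6 was at 96.3 and 101 CPM and then at 57.7 and 73.6 CPM. Both were below DMSO in both ACBI1 libraries, by -0.56 ± 0.22 and -0.58 ± 0.21, and missed the threshold (adjusted p = 0.0896 and 0.0571). Both passed it with DESeq2 (adjusted p = 0.017 and 0.00897), with no filter and with HCC44 fitted alone, and COL4A6 also with RLE factors (adjusted p = 0.0437) and the non-robust fit (adjusted p = 0.0443). Their ratio of read counts was 2.62 to 2.70 in all 4 HCC44 libraries. In H1975, COL4A5 was at 5.56 and 3.24 CPM in DMSO and at 2.82 and 2.05 CPM with ACBI1 (-0.85 ± 0.28, adjusted p = 0.0521), which passed the threshold with DESeq2 (adjusted p = 0.00174). COL4A6 was at 3.08 and 1.80 CPM in H1975 DMSO and at 0.279 and 0.127 CPM with ACBI1, a fall of 3.56 ± 0.38 (adjusted p = 0.000226). The ratio of the pair in H1975 was 1.81 and 1.79 in DMSO and 10.1 and 16.1 with ACBI1. COL4A3 and COL4A4, chains of the glomerular and alveolar trimer, were at 0.878 to 2.23 CPM in HCC44 DMSO and fell there by 1.68 ± 0.37 (adjusted p = 0.00583) and 1.06 ± 0.31 (adjusted p = 0.0219). The COL4A3 fall was not called without HCC44 DMSO replicate 1 (adjusted p = 0.0652), nor that of COL4A4 with DESeq2 (adjusted p = 0.0665) or without DMSO replicate 1 (adjusted p = 0.151) or ACBI1 replicate 1 (adjusted p = 0.139). In H1975 both genes had at most 2 reads in a library.

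**Figure D3:**
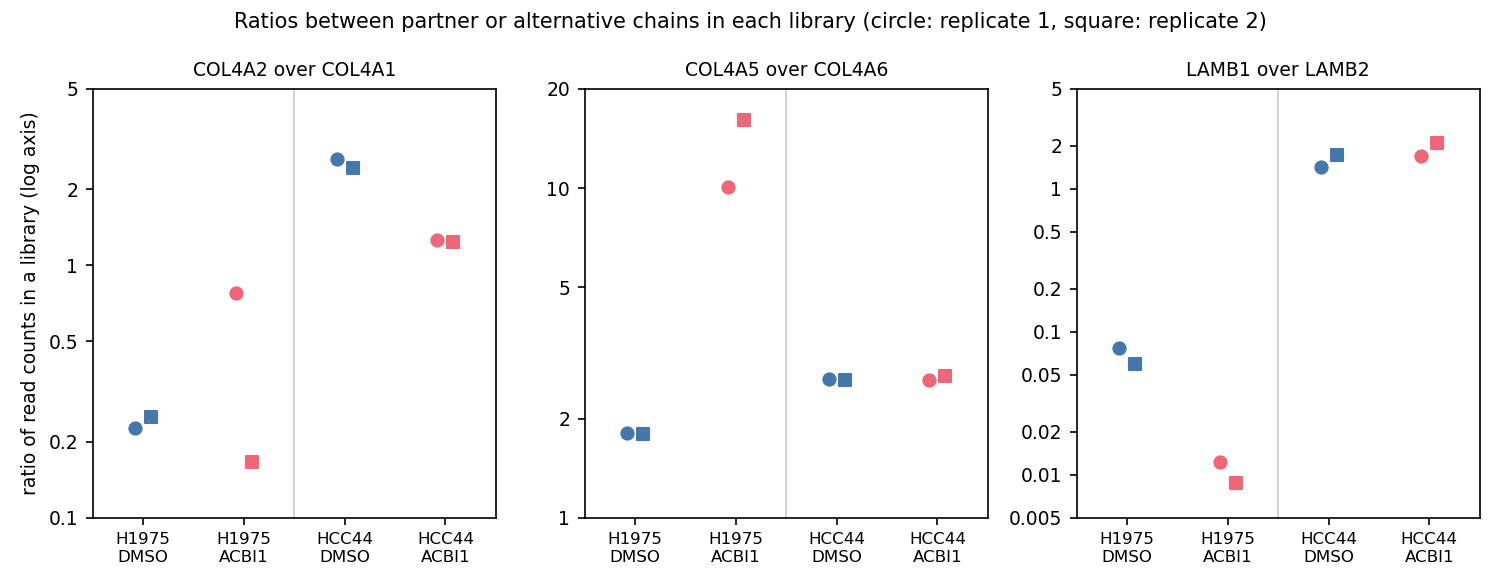
Ratio of read counts of partner chains, and of the alternative chains LAMB1 and LAMB2, in each library, on log axes, with DMSO in blue and ACBI1 in red. The ratio of COL4A2 to COL4A1 in HCC44 lies at 2.64 and 2.42 in DMSO and at 1.26 and 1.23 with ACBI1, that of COL4A5 to COL4A6 is higher with ACBI1 in H1975 and stays at 2.62 to 2.70 in HCC44, and that of LAMB1 to LAMB2 lies below 0.1 in H1975 and at 1.43 to 2.09 in HCC44.

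COL7A1, the chain of anchoring fibrils, fell in both lines. It was at 884 and 536 CPM in H1975 DMSO and at 65.9 and 44.6 CPM with ACBI1. In HCC44 it was at 442 and 490.2 CPM in DMSO and at 119 and 162 CPM with ACBI1. In both lines every ACBI1 library was far below both DMSO libraries. The fall was 3.68 ± 0.31 in H1975 (adjusted p = 0.000235) and 1.73 ± 0.29 in HCC44 (adjusted p = 0.0033). COL17A1, the collagen that crosses the membrane at hemidesmosomes, was at 219 and 152 CPM in H1975 DMSO and at 42.3 and 23.3 CPM with ACBI1, a fall of 2.50 ± 0.30 (adjusted p = 0.000902). In HCC44 it had 6 reads over both DMSO libraries and 17 over both ACBI1 libraries, against 24430 in H1975 DMSO. The ratio of H1975 DMSO to HCC44 DMSO, scaled for depth, was 3910 with an exact 95% interval of 1800 to 10700, which covers counting error only. COL7A1 was thus abundant in the DMSO libraries of both lines, and COL17A1 in those of H1975 alone.

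The start regions of these anchoring genes are shown because both fell in H1975. COL7A1 lies at chr3:48564073-48595267 and COL17A1 at chr10:104031286-104085957, both on the minus strand. The stretches are chr3:48595330-48595579 and chr10:104085958-104086130, chosen as above. Capitals mark the letters TATAAA and CCAAT and the GC box on either strand.
COL7A1: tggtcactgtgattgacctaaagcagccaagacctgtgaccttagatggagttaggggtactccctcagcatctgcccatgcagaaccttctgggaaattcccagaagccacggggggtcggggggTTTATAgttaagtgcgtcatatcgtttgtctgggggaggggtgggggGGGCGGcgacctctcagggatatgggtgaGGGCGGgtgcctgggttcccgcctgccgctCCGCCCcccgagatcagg
COL17A1: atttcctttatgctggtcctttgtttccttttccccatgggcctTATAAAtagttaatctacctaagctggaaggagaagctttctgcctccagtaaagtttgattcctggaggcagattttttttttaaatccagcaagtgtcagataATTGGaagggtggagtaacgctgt
Each holds TATAAA letters 1 time, in COL7A1 on the opposite strand. The search set no distance from the start site, so these letters need not mark a TATA box. The COL17A1 stretch has 173 bases and leaves out those nearest its start site at chr10:104085880. The COL7A1 stretch has 3 GC boxes and is 60.8% G and C, and that of COL17A1 has no GC box, 1 CCAAT and 40.5% G and C. Neither holds TGANTCA.

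Type I collagen, the chief fibre of connective tissue, is in its common form a trimer of COL1A1 and COL1A2 chains. COL1A1 was at 68.9 and 44.4 CPM in H1975 DMSO and at 28.9 and 22.9 CPM with ACBI1. The HCC44 libraries were at 89.5 and 71.1 CPM in DMSO and at 200.4 and 404 CPM with ACBI1. The groups did not overlap in either line, and they moved apart in opposite directions. The fall in H1975 was 1.13 ± 0.35 (adjusted p = 0.0485). Among the alternatives, it was not called with RLE factors (adjusted p = 0.0591), library totals (-0.92, adjusted p = 0.0967), no filter (adjusted p = 0.234), or without any 1 of the 4 H1975 libraries (-1.36 to -0.78, adjusted p = 0.131 to 0.357). The rise in HCC44 was 1.91 ± 0.35 (adjusted p = 0.0055) and was not called with no count filter (1.92, adjusted p = 0.0633). COL1A2 was at 2.30 and 3.83 CPM in H1975 DMSO and at 0.2 and 0.523 CPM with ACBI1, a fall of 3.09 ± 0.44 (adjusted p = 0.000804). In HCC44, COL1A2 had 12 reads over both DMSO libraries and 0 over both ACBI1 libraries, at least 3.98-fold lower when 3 reads over the group are taken as the floor. That call (adjusted p = 0.0292) was lost without any 1 of the 4 HCC44 libraries (adjusted p = 0.0673 to 0.108). COL1A1 reads exceeded COL1A2 reads 11.6 to 145-fold in the H1975 libraries, and 805 and 907-fold in HCC44 DMSO.

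Type V collagen sets the width of type I fibres. COL5A1 was at 454 and 474 CPM in H1975 DMSO and at 68.8 and 89.6 CPM with ACBI1. In HCC44 it was at 157 and 184 CPM in DMSO and at 101 and 137 CPM with ACBI1. ACBI1 libraries were below DMSO libraries in both lines, with falls of 2.55 ± 0.17 (adjusted p = 1.65e-05) and 0.51 ± 0.16 (adjusted p = 0.0324). The HCC44 fall was not called with library totals (-0.42, adjusted p = 0.0562), without HCC44 DMSO replicate 2 (-0.39, adjusted p = 0.191) or ACBI1 replicate 1 (-0.31, adjusted p = 0.179), or without H1975 DMSO replicate 1 (adjusted p = 0.0579) or 2 (adjusted p = 0.0517). Its partner COL5A2 was at 13.7 and 10.9 CPM in H1975 DMSO and at 7.83 and 7.38 CPM with ACBI1, and at 1.69 and 1.41 CPM in HCC44 DMSO and 1.71 and 3.40 CPM with ACBI1. Its changes of -0.69 ± 0.26 and 0.72 ± 0.30 were called in neither line (adjusted p = 0.0686 and 0.0814). DESeq2 called both, lower in H1975 (-0.66, adjusted p = 0.0441) and higher in HCC44 (0.72, adjusted p = 0.0372), as did the fit with no filter (adjusted p = 0.00425 and 0.00793). Of the other fibrillar collagens, COL27A1 ranged from 23.9 to 41.0 CPM and COL11A2 from 4.11 to 9.46 CPM over all 8 libraries, with overlapping groups in both lines and no call. COL24A1 was under 0.2 CPM in H1975 and at 0.795 and 0.956 CPM in HCC44 DMSO against 2.02 and 2.63 CPM with ACBI1. Its rise of 1.41 ± 0.46 (adjusted p = 0.0346) was not called without any 1 of the 4 HCC44 libraries (adjusted p = 0.0601 to 0.171). COL2A1, COL3A1, COL5A3 and COL11A1 stayed under 1 CPM.

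Type VI collagen, which forms filaments beside basement membranes, needs COL6A1, COL6A2 and a long chain such as COL6A3. COL6A2 was at 147 and 179 CPM in H1975 DMSO and at 56.0 and 75.6 CPM with ACBI1, a fall of 1.31 ± 0.15 (adjusted p = 0.000195). HCC44 libraries stood at 507 and 516 CPM in DMSO and at 303 and 357 CPM with ACBI1, a fall of 0.63 ± 0.15 (adjusted p = 0.00727) that was not called without HCC44 ACBI1 replicate 1 (-0.52, adjusted p = 0.0616). COL6A1 was at 104 and 115 CPM in H1975 DMSO and at 46.5 and 54.2 CPM with ACBI1, a fall of 1.12 ± 0.24 (adjusted p = 0.0099). Without any 1 of the 4 H1975 libraries the COL6A1 fall was between -1.22 and -0.99 and was not called (adjusted p = 0.0648 to 0.098). In HCC44, COL6A1 was at 191 and 255 CPM in DMSO and at 157 and 259.5 CPM with ACBI1, with overlapping groups. COL6A3 was at 1.76 and 2.07 CPM in H1975 DMSO and at 0.604 and 0.674 CPM in HCC44 DMSO, and fell by 2.60 ± 0.31 (adjusted p = 0.000195) and 1.62 ± 0.35 (adjusted p = 0.00476). COL6A1 reads exceeded those of COL6A3 at least 55.7-fold in every library. COL6A5 and COL6A6 were at or near 0.

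Fibril-associated collagens sit on the surface of larger fibres. COL16A1 was at 18.3 and 15.7 CPM in H1975 DMSO and at 2.89 and 3.99 CPM with ACBI1. In HCC44 it was at 37.5 and 34.1 CPM in DMSO and at 3.28 and 4.39 CPM with ACBI1. It fell in both lines with wide gaps between the groups, by 2.31 ± 0.19 (adjusted p = 2.75e-05) and 3.22 ± 0.20 (adjusted p = 2.12e-06). COL12A1, abundant in HCC44, was at 276 and 298 CPM in DMSO and at 358 and 466 CPM with ACBI1 there, and at 17.4 and 35.1 CPM against 18.8 and 32.4 CPM in H1975. Neither COL12A1 change was called (-0.04 ± 0.36 in H1975 and 0.52 ± 0.35 in HCC44). The HCC44 groups did not overlap, and the change was called with HCC44 fitted alone (0.53, adjusted p = 0.0141). A fit with the replicate number as a block within each line also called it (0.51, adjusted p = 0.000611). The type IX chains parted in HCC44. COL9A2 was at 12.8 and 8.46 CPM in DMSO and at 3.47 and 4.25 CPM with ACBI1 there, a fall of 1.46 ± 0.28 (adjusted p = 0.00246). COL9A3 was at 1.19 and 1.14 CPM in DMSO and at 3.89 and 7.87 CPM with ACBI1, a rise of 2.33 ± 0.32 (adjusted p = 0.000275). In H1975 both lay between 0.843 and 2.41 CPM and neither was called. COL9A3, whose H1975 groups did not overlap, was called with library totals (0.97, adjusted p = 0.0306) and with no filter (0.76, adjusted p = 0.0242). It was also called with H1975 fitted alone (0.77, adjusted p = 0.03) and with the replicate block (0.77, adjusted p = 0.0294). COL9A1 was near 0 throughout. COL20A1 was at 10.6 and 9.83 CPM in HCC44 DMSO and at 2.48 and 0.677 CPM with ACBI1, a fall of 2.70 ± 0.56 (adjusted p = 0.00728), and at 1.01 to 2.08 CPM in H1975 with overlapping groups.

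The remaining types fell mostly in HCC44. COL13A1, a transmembrane collagen, was at 34.4 and 40.0 CPM in HCC44 DMSO and at 2.69 and 3.84 CPM with ACBI1, a fall of 3.51 ± 0.20 (adjusted p = 1.13e-06). In H1975, COL13A1 was at 19.3 and 17.3 CPM in DMSO and at 11.5 and 14.5 CPM with ACBI1, which missed the threshold (-0.49 ± 0.18, adjusted p = 0.0535) and passed it with DESeq2 (adjusted p = 0.0463). The short-chain COL8A2 was at 10.6 and 6.76 CPM in HCC44 DMSO and at 2.27 and 3.29 CPM with ACBI1, a fall of 1.64 ± 0.29 (adjusted p = 0.00149), and at 0.771 to 1.22 CPM in H1975. Its partner COL8A1 was higher in H1975, at 5.17 and 8.98 CPM in DMSO and at 2.94 and 4.85 CPM with ACBI1 (-0.86 ± 0.35, adjusted p = 0.0857). In HCC44, COL8A1 was at 0.795 and 1.52 CPM in DMSO and at 0.112 and 0.126 CPM with ACBI1, a fall of 3.26 ± 0.54 (adjusted p = 0.00108). COL18A1, a basement membrane proteoglycan core whose end fragment is endostatin, was at 114 and 112 CPM in H1975 DMSO and at 84.6 and 91.8 CPM with ACBI1. In HCC44, COL18A1 was at 211 and 210.2 CPM in DMSO and at 104 and 118 CPM with ACBI1. The groups lay apart in both lines, with falls of 0.36 ± 0.09 (adjusted p = 0.0121) and 0.93 ± 0.09 (adjusted p = 3.53e-05). The H1975 fall was not called under library totals (-0.15, adjusted p = 0.196) or without any 1 of the 4 H1975 libraries (adjusted p = 0.052 to 0.17). In GENCODE 29, 16.4% of the exon bases of COL18A1 are shared with another gene, and the counting's strand setting is not given in the sources used here, so its counts are uncertain in that respect. COL28A1 was at 2.17 to 3.26 CPM in H1975 and near 0 in HCC44, COL15A1 was at 0.176 to 1.23 CPM, and neither was called.

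**Figure D4:**
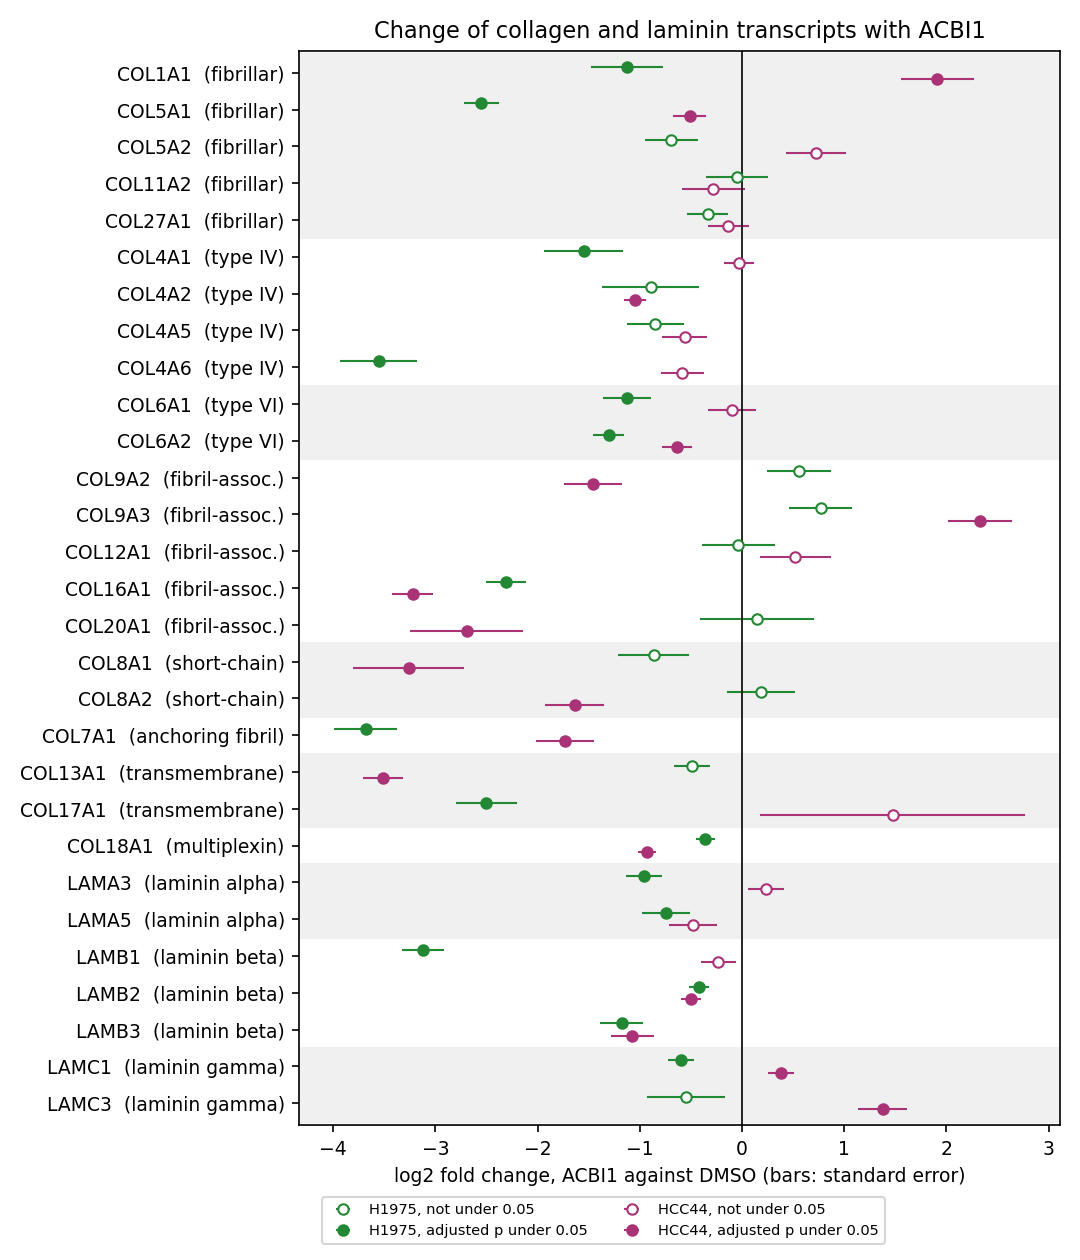
Log2 fold change of ACBI1 against DMSO (horizontal axis, bars are standard errors) for the same 29 members, in H1975 (green) and HCC44 (purple). Filled points have an adjusted p under 0.05, 16 of 29 in H1975 and 17 of 29 in HCC44. COL1A1 and LAMC1 have filled points on opposite sides of 0.

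There were 18 members under 1 CPM in every group. They were COL2A1, COL3A1, COL5A3, COL6A5, COL6A6, COL9A1, COL10A1, COL11A1, COL14A1, COL19A1, COL21A1, COL22A1, COL23A1, COL25A1, COL26A1, LAMA1, LAMA4 and LAMB4, and the highest group mean among them was 0.781 CPM. COL6A6, COL10A1 and COL19A1 had no reads in any library. Of the 6 that were tested, COL26A1 was the member that rose in H1975, LAMA4 fell in H1975 and COL25A1 fell in HCC44, and none of these calls held under every alternative. COL25A1 had 44 and 55 reads in HCC44 DMSO and 22 and 23 with ACBI1, and its call (adjusted p = 0.038) was lost with DESeq2 (0.189), library totals (0.0538), no filter (0.0507) and without any 1 of the 4 HCC44 libraries (0.0817 to 0.195). LAMA4 had 5 and 12 reads in H1975 DMSO and 1 and 2 with ACBI1, and its call (adjusted p = 0.0447) was lost with DESeq2 (0.0651), library totals (0.055) and without any 1 of 5 libraries (0.0564 to 0.279), namely H1975 DMSO replicate 2 and both replicates of H1975 ACBI1 and HCC44 DMSO. COL26A1 had 18 and 17 reads in H1975 DMSO and 60 and 43 with ACBI1, and its call (adjusted p = 0.0213) was lost with DESeq2 (0.0963) and without either H1975 DMSO replicate or ACBI1 replicate 1 (0.0706 to 0.122).

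The difference between the lines' responses was tested directly as an interaction, HCC44 minus H1975. It passed the threshold for 20 of 44 tested members, against 18.6% of all tested genes, with 12 members above 0 and 8 below. Above 0 were COL1A1, COL5A1, COL5A2, COL4A1, COL4A6, COL6A2, COL9A3, COL7A1, LAMA3, LAMB1, LAMC1 and LAMC3. Below 0 were COL9A2, COL16A1, COL20A1, COL8A1, COL8A2, COL13A1, COL25A1 and COL18A1. Of all tested genes 10.2% were above and 8.4% below. Among the laminins all 4 differences that were called were above 0, led by LAMB1 at 2.90 ± 0.27 (adjusted p = 0.000266). The largest below 0 among members of 5 CPM or more was that of COL13A1, -3.02 ± 0.26 (adjusted p = 8.18e-05). The difference was 0.10 ± 0.29 for LAMB3 (adjusted p = 0.867) and -0.08 ± 0.14 for LAMB2 (adjusted p = 0.75), so no difference between the lines was detectable for these beta chains at this spread. Fewer members were called in each fit that left out 1 of the 8 libraries. The share of all tested genes called was also smaller in each of these fits. In H1975 itself, calls of members were lost without any 1 of the 4 H1975 libraries. A smaller share of all tested genes was called in each of those fits too.

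The DMSO libraries of the lines were also compared, and this comparison shares its control libraries with those above. It called 34 of 44 tested members, against 67.9% of all tested genes, with 23 higher in HCC44 and 11 higher in H1975, where 31.6% and 36.4% of all tested genes were. All 6 type IV chains were higher in HCC44, with COL4A2 at 12.07 ± 0.20 on the log2 scale (adjusted p = 3.37e-11) and COL4A1 at 8.67 ± 0.23 (adjusted p = 8.44e-10). LAMB1 was higher there by 4.46 ± 0.20 (adjusted p = 8.22e-08), COL12A1 by 3.45 ± 0.39 (adjusted p = 0.000137) and LAMA5 by 2.42 ± 0.25 (adjusted p = 5.46e-05). Higher in H1975 were COL17A1, COL28A1, COL1A2, COL5A1, COL5A2, COL5A3, COL6A3, COL8A1, COL26A1, LAMA1 and LAMA2. The LAMB2, LAMB3 and LAMC1 values were within 0.23 of 0 and were not called. This order of the lines stands beside the marker sums given above, in HCC44 lower for the epithelial list and higher for the fibroblast list. All 8 epithelial markers were called lower in HCC44. Of 5 tested fibroblast markers, 4 were called higher and 1 lower there. Markers of a mesenchymal state (VIM, CDH2, ZEB1, ZEB2, FN1, SNAI2 and TWIST1) went the other way in their sum, at 2265 to 2869 CPM in H1975 DMSO and 541.6 to 644.3 CPM in HCC44 DMSO, with 3 lower and 2 higher in HCC44 of 6 tested. The part of these markers in the order of the lines was not tested.

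Genes that make, trim, bind or induce the matrix were listed beside the members, as lists chosen with earlier results of these data known. Of 20 genes that fold and modify collagen in the endoplasmic reticulum, 10 fell and 1 rose in H1975, and 11 fell and 1 rose in HCC44, with median changes of -0.35 and -0.36. That is 55% and 60% of the list, against 31.3% and 34.9% of all tested genes. The collagen chaperone SERPINH1 was at 247 and 305 CPM in H1975 DMSO and at 96.8 and 127 CPM with ACBI1, a fall of 1.30 ± 0.14 (adjusted p = 0.000113). In HCC44 the largest fall was that of the prolyl hydroxylase chain P4HA2, from 103 and 97.8 CPM to 31.4 and 29.1 CPM (-1.73 ± 0.09, adjusted p = 7.41e-07). The lysyl hydroxylase PLOD2 moved in opposite directions, with a fall of 0.80 ± 0.12 in H1975 (adjusted p = 0.000673) and a rise of 0.89 ± 0.12 in HCC44 (adjusted p = 0.000232). Of 13 tested genes for propeptide cleavage and crosslinking, 4 fell and none rose in H1975, and 6 fell and 2 rose in HCC44. The share called was close to that of all tested genes in H1975 (30.8% against 31.3%), and in HCC44 it was 61.5% against 34.9%. BMP1, the protease that trims the carboxyl end of fibrillar procollagens, fell by 1.69 ± 0.11 in H1975 (adjusted p = 7.07e-06). The crosslinking lysyl oxidase LOX fell by 2.40 ± 0.36 in HCC44 (adjusted p = 0.00177), and the enhancer of procollagen cleavage PCOLCE2 rose there by 0.43 ± 0.11 (adjusted p = 0.0131). The PCOLCE2 rise was not called without HCC44 DMSO replicate 1 (adjusted p = 0.132) or ACBI1 replicate 2 (adjusted p = 0.0654).

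Of 10 tested partners of laminin and type IV collagen in the basement membrane, 3 fell and none rose in H1975, and 3 fell and 2 rose in HCC44. The share called was 30% in H1975, near the 31.3% of all tested genes, and 50% in HCC44 against 34.9%. SPARC, which binds collagen, fell by 1.86 ± 0.12 in H1975 (adjusted p = 7.53e-06). Agrin (AGRN), a proteoglycan that binds laminin, was at 3789 and 3761 CPM in HCC44 DMSO and at 956 and 1161 CPM with ACBI1, a fall of 1.83 ± 0.11 (adjusted p = 2.12e-06). FBLN2 rose in HCC44 by 1.49 ± 0.25 (adjusted p = 0.00168). Of 13 receptors, 4 fell and none rose in H1975, and 2 fell and 5 rose in HCC44. The share called was 30.8% in H1975, near the 31.3% of all tested genes, and 53.8% in HCC44 against 34.9%. ITGA3, the integrin alpha chain that binds the laminins of LAMA3 and LAMA5, fell in both lines, by 1.22 ± 0.11 (adjusted p = 4.52e-05) and 1.504 ± 0.11 (adjusted p = 7.43e-06). ITGA10, a collagen-binding integrin chain, was at 2.37 CPM in both HCC44 DMSO libraries and at 55.7 and 71.0 CPM with ACBI1, a rise of 4.74 ± 0.25 (adjusted p = 1.23e-06). In H1975, ITGA10 stayed between 1.57 and 2.91 CPM.

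Of 10 tested targets of TGF-beta, a growth factor known to induce matrix genes, 8 fell and 1 rose in H1975, with a median of -1.43, and 3 fell and 3 rose in HCC44, with a median of -0.34. The shares called were 90% and 60%, against 31.3% and 34.9% of all tested genes. TGFBI fell in H1975 by 2.26 ± 0.29 (adjusted p = 0.00143), and ACTA2, smooth muscle actin, rose there by 1.24 ± 0.23 (adjusted p = 0.00234). Fibronectin (FN1) was at 987 and 1389 CPM in H1975 DMSO and at 326 and 372 CPM with ACBI1. The HCC44 libraries were at 29.95 and 21.6 CPM in DMSO and at 91.1 and 101 CPM with ACBI1. Like COL1A1, FN1 thus stood lower with ACBI1 in H1975 and higher in HCC44, with changes of -1.77 ± 0.19 (adjusted p = 0.000267) and 1.90 ± 0.19 (adjusted p = 0.000134). CCN2 fell in HCC44 by 1.25 ± 0.38 (adjusted p = 0.0391), from 305 and 131 CPM to 111 and 72.2 CPM. That call was lost under library totals (adjusted p = 0.0644), with no filter, with the line fitted alone, and without any library but HCC44 DMSO replicate 2 (adjusted p = 0.077 to 0.237). Epithelial markers moved beside the members, with sums of 2531 to 3104 CPM in H1975 ACBI1, below those of H1975 DMSO, and of 1218 to 1689 CPM in HCC44 ACBI1, above those of HCC44 DMSO. Of the 8, 4 fell and none rose in H1975, and 2 fell and 3 rose in HCC44. The part of these changes in those of the members was not tested.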

How the data were processed

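RNA-seq libraries of 2 lung cancer lines were analysed from the count tables that the authors deposited, whole-number read counts per gene with no normalization. Per the submitters' processing notes, reads were aligned to hg38 with TopHat2 2.1.1 and counted with HTSeq 0.11.0. The annotation and the strand setting are not given in the sources used here. The 5 summary rows of each table, 14.3 to 15.8% of its total, were left out.

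Genes with enough counts by filterByExpr over the 4 groups (21307 of 61228) were fitted together in edgeR 4.0.16 under R 4.3.3, with TMM factors, a robust quasi-likelihood fit, 4 residual degrees of freedom and no replicate block. Tests were two-sided and adjusted by Benjamini-Hochberg over all tested genes at 0.05. The comparisons were ACBI1 against DMSO in each line, their difference, and the DMSO groups. The steps were tested on simulated data. Alternatives were DESeq2 1.42.0, RLE factors, library totals, other filters, a non-robust fit, each line alone, a replicate block and each library left out.

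Members that reached 5 CPM as the mean of a group were described in full, and of each pathway list the largest rise and fall that passed the test. The members and lists were chosen with earlier results of these data known, and the alternatives for single pathway genes, and for members under 5 CPM, were added after seeing the data. Exon lengths came from GENCODE 29 for all 56 members, and promoter sequences from RefSeq, GRCh38.p14. Between replicates of a group the chi-square per degree of freedom was 21.7 to 43.5, above the 1 of sampling noise alone. The labels name no batch. The values of 1 member are not reported here, though counts over members include it.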

Additional observations from a re-analysis of the deposited data

Results flagged for a closer look

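For 20 members the interaction test of edgeR, adjusted over all tested genes, found unlike responses in the 2 lines. Each value below is the HCC44 change minus the H1975 change on the log2 scale. Among collagens of fibres and filaments it was 3.04 for COL1A1, 2.04 for COL5A1, 1.42 for COL5A2 and 0.67 for COL6A2. For the type IV chains called it was 1.52 for COL4A1 and 2.97 for COL4A6, and for the anchoring collagen COL7A1 it was 1.95. The fibril-associated and short-chain collagens gave -2.02 for COL9A2, 1.56 for COL9A3, -0.91 for COL16A1, -2.84 for COL20A1, -2.40 for COL8A1 and -1.83 for COL8A2. The transmembrane and multiplexin collagens gave -3.02 for COL13A1, -3.87 for COL25A1 and -0.57 for COL18A1. Among laminins it was 1.19 for LAMA3, 2.90 for LAMB1, 0.98 for LAMC1 and 1.92 for LAMC3. The COL25A1 value rests on 1 read over both H1975 DMSO libraries and 9 over both H1975 ACBI1 libraries, a depth-scaled ratio of 8.14 with an exact 95% interval of 1.13 to 357. COL4A1 and LAMC3 were likewise under 1 CPM in every H1975 library and reached 5 CPM in HCC44 alone. COL4A1 had 44 and 28 reads in H1975 DMSO and 9 and 18 with ACBI1. LAMC3 had 20 and 13 reads in H1975 DMSO and 14 and 11 with ACBI1. Of the 19 members at 5 CPM or more among those called, 7 were called under every alternative. Leaving out 1 library ended the call for 13 of the 20, with the adjusted p of the same test in parentheses. These were COL1A1 without any 1 of 3 libraries (0.0711 to 0.106), COL5A2 without any 1 of 6 libraries (0.0561 to 0.113), COL4A1 without any 1 of 4 libraries (0.0545 to 0.128), COL6A2 without any 1 of 5 libraries (0.117 to 0.169), COL9A3 without any 1 of 6 libraries (0.0614 to 0.0965), COL16A1 without any 1 of 5 libraries (0.0741 to 0.12), COL20A1 without any 1 of 6 libraries (0.0652 to 0.167). The others were COL8A1 without any 1 of 5 libraries (0.0542 to 0.119), COL8A2 without any 1 of 2 libraries (0.0552 to 0.0709), COL7A1 without HCC44 ACBI1 replicate 2 (0.065), COL18A1 without H1975 ACBI1 replicate 2 (0.0507), LAMC3 without any 1 of 2 libraries (0.0536 to 0.0925) and COL25A1 without any 1 of 5 libraries (0.0501 to 0.104).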

How the results depend on the processing

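With all libraries kept, members called numbered 18 to 25 in H1975, 21 to 31 in HCC44, 19 to 24 for the difference between the lines and 27 to 38 between the DMSO groups. Leaving out each library in turn gave 13 to 25, 18 to 25, 11 to 19 and 31 to 38. Where this left 1 library in a group, it was assumed to vary like the other groups. Of the members at 5 CPM or more that were called, 10 of 17 in H1975, 13 of 17 in HCC44, 7 of 19 for the difference and 20 of 21 between the DMSO groups were called under every alternative, and no called value changed sign. The mark of 5 CPM could be met in either line. COL4A1 and COL4A6, called in H1975, and COL8A1, called in HCC44, were under 5 CPM in the line of the call. The cause of the lost calls was not tested. Changes of sign met values that were not called. Under library totals they were 0.154 for COL11A2 in H1975, 0.0608 for COL4A1 in HCC44, 0.166 for COL12A1 in H1975, -0.00822 for LAMB3 for the difference between the lines. Others came from leaving out a library, in these ranges of log2 values. The ranges in H1975 were COL11A2 -0.407 to 0.510, COL27A1 -0.584 to 0.0297, COL12A1 -0.464 to 0.607, COL20A1 -0.237 to 0.756 and COL8A2 -0.152 to 0.515. The ranges for the difference between the lines were COL11A2 -0.792 to 0.124, COL27A1 -0.163 to 0.449, COL4A2 -0.611 to 0.477, COL4A5 -0.149 to 0.574, COL12A1 -0.0873 to 0.983, LAMA5 -0.110 to 0.568, LAMB2 -0.203 to 0.0141 and LAMB3 -0.310 to 0.429. The ranges between the DMSO groups were COL11A2 -0.771 to 0.141, COL27A1 -0.389 to 0.221 and LAMB2 -0.115 to 0.0200. The ranges in HCC44 were COL27A1 -0.336 to 0.0469, COL4A1 -0.175 to 0.104, COL6A1 -0.503 to 0.221 and LAMA3 -0.0625 to 0.486. The difference and the DMSO comparison have no fit of each line alone.

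Replicates of a line share only a number. A fit with the replicate number as a block within each line called 25, 31, 24 and 38 members in the same order of comparisons. It also called more of all tested genes, 42.7, 44.7, 29.8 and 68.7% against 31.3, 34.9, 18.6 and 67.9% without the block. Same-numbered deviations correlated at 0.736 in H1975 and 0.257 in HCC44. With the block, the COL1A1 value in H1975 was -1.11 and was not called (adjusted p = 0.125), and no other described call of a member was lost. Members under 1 CPM rest on few reads, so that differences among them were not detectable at this depth unless large.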
